A study of Homo sapiens with 6 samples.

Results

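The genes described here handle nucleotides and nucleoside analogues: the 2 subunits of ribonucleotide reductase (RRM1, RRM2), 4 deoxynucleoside kinases (TK1, TK2, DCK, DGUOK), a nucleoside transporter (SLC29A1), and 3 enzymes that break down or inactivate nucleosides or nucleotides (SAMHD1, NT5C2, CDA). The list is one of gene names, drawn up with earlier results of these data known, and all 10 were among the 18404 genes tested, each through 1 probe set annotated to that gene alone. They were measured in MEC-1, an established human B cell line from chronic lymphocytic leukemia (CLL), grown in RPMI medium with fetal calf serum and without phenol red or antibiotics. Of 6 microarrays, 3 came from cells given a lentiviral short hairpin RNA (shRNA) that knocks down UGT2B17, an enzyme that glucuronidates androgens, and 3 from cells given a scrambled shRNA by the same route. The submitters call the replicates of each group independent, without saying in what way, so each p-value reflects the spread among these 6 arrays alone, which may be partly technical. How many hairpins were used is not stated, and both groups carry a lentiviral hairpin.

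Cells obtain deoxynucleotides in 2 ways. Ribonucleotide reductase makes them from ribonucleotides, while salvage takes nucleosides up through membrane transporters and phosphorylates them with deoxynucleoside kinases. Purine and cytidine analogues used against leukemia, such as fludarabine, cladribine and cytarabine, follow the salvage route: DCK adds the initial phosphate, nucleotidases and SAMHD1 can remove phosphates again, and the triphosphate of fludarabine also inhibits ribonucleotide reductase.

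The UGT2B17 probe set read 3.19, 3.27 and 3.17 log2 units in the knockdown and 3.95, 3.69 and 3.91 with scrambled shRNA, a log2 fold change of −0.64 ± 0.08 (SE; limma, adjusted p = 0.00654). The UGT2B17 probe set lay at percentile 1.98 of the genes tested by mean level, near the bottom of the array's range, so the size of its change is uncertain. Any pair of arrays correlated at 0.991 to 0.996. The array that departed most from its group mean was scrambled replicate 3, by 0.166 log2 units (root mean square), against 0.117 to 0.142 for the other arrays. Of 10 B cell markers 8 were measured, all at or above percentile 88.7 of the genes tested by mean level. The 10 T and NK cell markers lay at percentile 51.5 or below, and the 10 monocyte and granulocyte markers at 55.7 or below.

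The promoter windows below belong to the 4 genes whose arrays did not overlap between groups, RRM2, RRM1, TK2 and SAMHD1, and are shown because these genes carry the differences described next. Each is the 300 bases from 250 before to 50 after an annotated start in RefSeq (GRCh38.p14), written 5′ to 3′ on the gene's strand. The RRM2 window, the one listed earliest of 2, is chr2:10122489-10122788 on the plus strand, and that of RRM1 is chr11:4094435-4094734 on the plus strand. The TK2 window is chr16:66550073-66550372 and that of SAMHD1 chr20:36951659-36951958, both on the minus strand. Capitals mark CCAAT or its reverse complement ATTGG, the core of the CCAAT box, a common promoter element.
RRM2: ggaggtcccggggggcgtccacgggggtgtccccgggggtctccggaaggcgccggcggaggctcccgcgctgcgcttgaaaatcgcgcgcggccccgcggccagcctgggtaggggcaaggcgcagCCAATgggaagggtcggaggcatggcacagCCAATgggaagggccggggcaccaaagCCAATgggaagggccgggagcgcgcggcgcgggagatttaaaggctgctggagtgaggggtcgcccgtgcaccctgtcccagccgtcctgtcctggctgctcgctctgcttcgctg
RRM1: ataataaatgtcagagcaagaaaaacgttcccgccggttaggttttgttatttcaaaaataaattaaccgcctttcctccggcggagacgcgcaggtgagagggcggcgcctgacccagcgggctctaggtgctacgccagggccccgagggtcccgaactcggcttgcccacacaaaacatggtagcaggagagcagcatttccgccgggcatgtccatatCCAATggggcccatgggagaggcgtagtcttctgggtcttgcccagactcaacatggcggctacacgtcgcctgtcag
TK2: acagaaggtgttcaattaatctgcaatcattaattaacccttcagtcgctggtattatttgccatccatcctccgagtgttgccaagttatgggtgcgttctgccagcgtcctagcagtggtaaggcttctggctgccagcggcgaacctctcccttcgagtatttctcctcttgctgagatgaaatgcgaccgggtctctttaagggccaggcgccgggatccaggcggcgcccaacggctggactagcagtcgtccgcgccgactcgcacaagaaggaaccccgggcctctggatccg
SAMHD1: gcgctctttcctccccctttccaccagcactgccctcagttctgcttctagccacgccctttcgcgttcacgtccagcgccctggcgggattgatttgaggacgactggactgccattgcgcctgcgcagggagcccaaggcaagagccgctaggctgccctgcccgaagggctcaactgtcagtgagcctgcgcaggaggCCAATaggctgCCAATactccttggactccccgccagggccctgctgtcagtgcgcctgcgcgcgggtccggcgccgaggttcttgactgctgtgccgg
The RRM2 window held 3 such matches, starting 123, 93 and 66 bases before the annotated start, each followed by the letters GGGAAGGG. The RRM1 window held 1, at 28 bases, and the SAMHD1 window 2, at 49 and 38 bases. The TK2 window held 0 matches, which says only that these letters are not in it. Of 27305 RefSeq promoter windows of the same length, 1 per gene, 35.7% held at least 1 match and 3.42% held 3 or more. A match is a description of the letters and not a measured binding site.

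Of the 10 genes, 2 rose in the knockdown, 0 fell and 8 did not pass (limma, Benjamini-Hochberg adjusted p under 0.05 over all genes), where 3.61% of all genes tested passed, 1.92% higher and 1.69% lower. The 2 were RRM2, the small subunit of ribonucleotide reductase, and TK2, the mitochondrial thymidine kinase. The largest difference among the 10 was in SAMHD1, at −0.70 log2 units, which did not pass. The groups did not overlap for 4 of the 10 genes, against 24.8% of all genes, and 4 had an unadjusted p under 0.05, against 18.2%. The median log2 fold change of the 10 was 0.0063, beside −0.0022 over all genes.

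**Figure D1:**
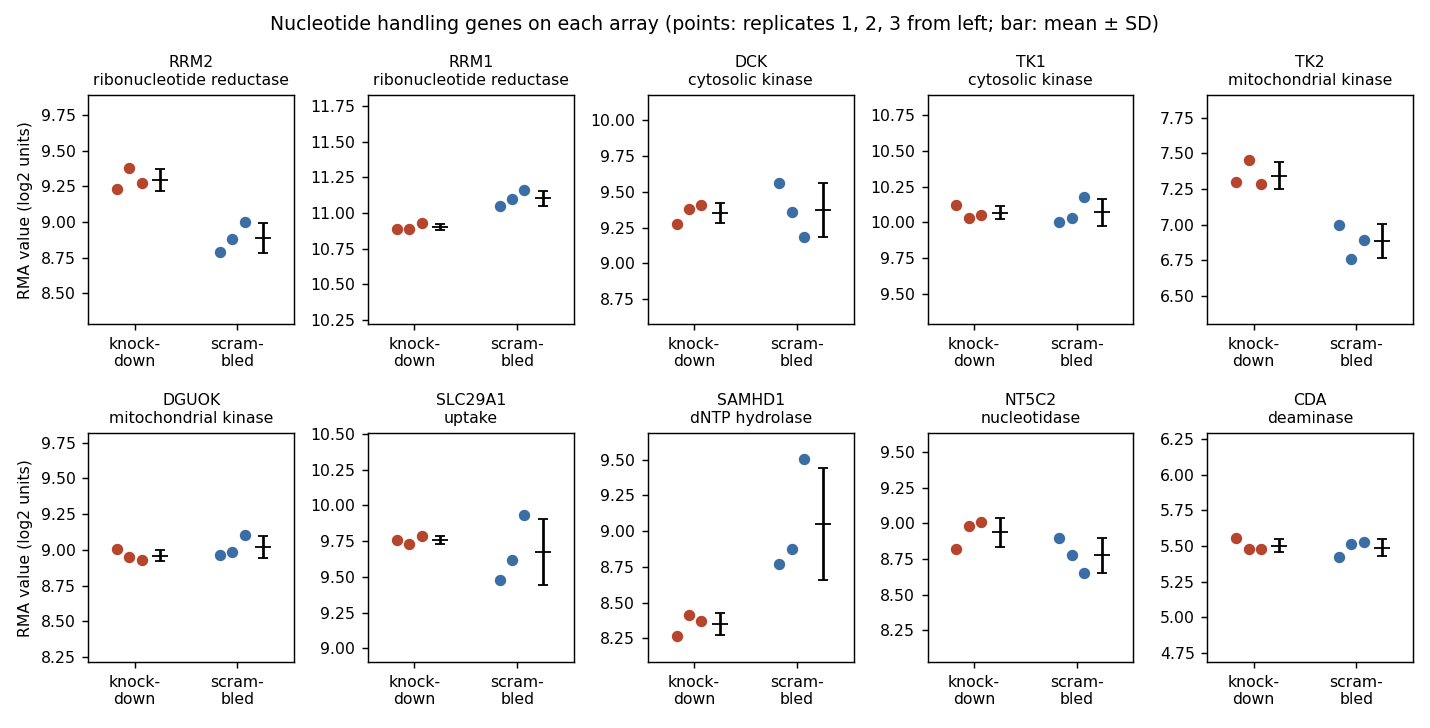
RMA values in log2 units (y axis, each panel spanning the same range) of the 10 genes on the 3 UGT2B17 knockdown arrays (red, left) and the 3 scrambled shRNA arrays (blue, right), with group means ± SD beside the points. The knockdown points lie above all scrambled points for RRM2 and TK2 and below all of them for RRM1 and SAMHD1, and scrambled replicate 3 reads 9.50 for SAMHD1.

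Of the 2 subunits of ribonucleotide reductase, RRM2 rose and RRM1 did not pass. RRM2, whose level limits the enzyme in dividing cells and which is made mainly in S phase, read 9.23, 9.38 and 9.27 log2 units in the knockdown and 8.79, 8.88 and 9.001 with scrambled shRNA. All 3 knockdown arrays lay above all 3 scrambled arrays, and the exact permutation p of 0.1 is the smallest that 3 against 3 allows. RRM2 rose by 0.40 ± 0.08 log2 units (SE; 95% interval 0.23 to 0.58), or 1.32-fold (limma, adjusted p = 0.0279). The call was lost when arrays were centred on their median (0.38; adjusted p = 0.0540) and when every probe set of the array was tested (adjusted p = 0.0967). It was also lost without knockdown replicate 1, 2 or 3 (adjusted p = 0.0804, 0.129 and 0.101) and without scrambled replicate 1 or 2 (adjusted p = 0.0557 and 0.104), while without scrambled replicate 3 it held, at 0.46 (adjusted p = 0.0146). Over all alternatives the change stayed between 0.35 and 0.46 and the adjusted p between 0.000804 and 0.129. RefSeq lists pseudogenes of RRM2 (RRM2P2, RRM2P3, RRM2P4), and whether the probe set reads any of them was not tested.

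RRM1, the large catalytic subunit, read 10.89, 10.89 and 10.93 log2 units in the knockdown and 11.05, 11.09 and 11.16 with scrambled shRNA. The knockdown arrays lay below all scrambled arrays, by a log2 difference of −0.20 ± 0.06 (SE; 95% interval −0.34 to −0.06), which did not pass over all genes (limma, adjusted p = 0.129). It was −0.17 without scrambled replicate 3. The gap between the subunits, RRM2 minus RRM1 on the same array, was −1.66, −1.51 and −1.65 log2 units in the knockdown and −2.26, −2.22 and −2.16 with scrambled shRNA. This gap, chosen after the values were seen and therefore given without a test, was smaller by 0.60 log2 units in the knockdown. Its groups could not overlap, because RRM2 lay above and RRM1 below on every knockdown array. The size of the gap depends on the probe sets and is not a ratio of transcripts. RRM2B, the alternative small subunit induced by p53, read 8.37 ± 0.05 in the knockdown and 8.25 ± 0.12 with scrambled shRNA (SD, n = 3 each), a difference of 0.12 ± 0.08 (SE) that did not pass (limma, adjusted p = 0.471).

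Of the mitochondrial kinases, TK2 rose and DGUOK did not pass. TK2 phosphorylates thymidine, deoxycytidine and deoxyuridine in mitochondria and supplies mitochondrial DNA synthesis when cells do not divide. It read 7.30, 7.45 and 7.29 log2 units in the knockdown and 7.00, 6.76 and 6.90 with scrambled shRNA, with no overlap between groups. TK2 rose by 0.46 ± 0.08 log2 units (SE; 95% interval 0.27 to 0.65), or 1.37-fold (limma, adjusted p = 0.0223). The size stayed between 0.40 and 0.58 over all alternatives, and the adjusted p between 0.000579 and 0.107. The call was lost without knockdown replicate 1, 2 or 3 (adjusted p = 0.0802, 0.107 and 0.0735), without scrambled replicate 2 (adjusted p = 0.0852) and when every probe set of the array was tested (adjusted p = 0.0880). It held without scrambled replicate 1 or 3.

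DGUOK, which phosphorylates purine deoxynucleosides in mitochondria, read 9.01, 8.95 and 8.93 log2 units in the knockdown and 8.96, 8.99 and 9.10 with scrambled shRNA. Its arrays overlapped, and the difference of −0.06 ± 0.07 (SE) had a 95% interval of −0.21 to 0.09 (limma, adjusted p = 0.721). It was −0.015 without scrambled replicate 3.

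Neither cytosolic kinase passed. DCK, the kinase that activates fludarabine, cladribine and cytarabine, read 9.28, 9.38 and 9.40 log2 units in the knockdown and 9.56, 9.36 and 9.19 with scrambled shRNA. The scrambled arrays enclosed the knockdown arrays, and the difference of −0.02 ± 0.10 (SE) had a 95% interval of −0.24 to 0.20 (limma, adjusted p = 0.950). TK1, the thymidine kinase of S phase and a marker of proliferation, read 10.12, 10.03 and 10.05 log2 units in the knockdown and 10.00, 10.03 and 10.18 with scrambled shRNA. Its difference was −0.0015 ± 0.07 (SE), with a 95% interval of −0.16 to 0.16 (limma, adjusted p = 0.995). The sign of TK1 turned in 5 of 16 alternatives and that of DCK in 3 of 16, none of which gave a call. Without scrambled replicate 3, DCK read −0.11 and TK1 0.05.

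SLC29A1, the equilibrative nucleoside transporter through which many analogues enter cells, read 9.76, 9.73 and 9.78 log2 units in the knockdown and 9.48, 9.62 and 9.93 with scrambled shRNA. The 3 knockdown arrays lay close together inside the range of the scrambled arrays. The difference of 0.08 ± 0.11 (SE) had a 95% interval of −0.16 to 0.33 (limma, adjusted p = 0.759). Without scrambled replicate 3, the highest of the 6 arrays, it was 0.21 and did not pass (adjusted p = 0.146). Without scrambled replicate 2 it was 0.05, and without scrambled replicate 1 its sign turned, at −0.017 (adjusted p = 0.9501).

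Among the enzymes that oppose activation, SAMHD1 showed the largest difference. SAMHD1 splits deoxynucleoside triphosphates, including the triphosphate of cytarabine, into nucleosides and triphosphate, and it is recurrently mutated in CLL. It read 8.27, 8.42 and 8.37 log2 units in the knockdown and 8.77, 8.88 and 9.50 with scrambled shRNA. The groups did not overlap, but scrambled replicate 3 stood well above the other arrays of its group, and the SD was 0.08 in the knockdown and 0.39 with scrambled shRNA. The log2 fold change was −0.70 ± 0.17 (SE; 95% interval −1.08 to −0.32), which left 61.6% of the scrambled signal and did not pass (limma, adjusted p = 0.0578). Without scrambled replicate 3 the difference was smaller, at −0.47, and passed (adjusted p = 0.0140), and without scrambled replicate 1 it was −0.84 and passed (adjusted p = 0.0363). It stayed below 0 in 16 of 16 alternatives, with adjusted p from 0.00313 to 0.199.

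SAMHD1 is also abundant in myeloid cells, so their markers stand here beside it. Of 10 monocyte and granulocyte markers, 0 passed in limma and 2 had an unadjusted p under 0.05 (20%, near the 18.2% of all genes). Their median log2 fold change was −0.03, with 3 above 0 and 7 below. After renewed quantile normalisation, with arrays centred on their median, and without scrambled replicate 3, 1 of the 10 passed, lower in the knockdown. Their mean level was 5.33 to 5.35 log2 units on the knockdown arrays and 5.37 to 5.47 on the scrambled arrays. CD14, a monocyte receptor, read 5.24 ± 0.11 in the knockdown and 5.43 ± 0.04 with scrambled shRNA, and LYZ, lysozyme, read 3.27 ± 0.05 in the knockdown and 3.37 ± 0.05 with scrambled shRNA (SD, n = 3 each). ITGAM, an integrin chain of myeloid cells, read 6.51 ± 0.07 in the knockdown and 7.11 ± 0.34 with scrambled shRNA, and did not pass (limma, adjusted p = 0.0659). On the other side of 0, FCGR3A, an Fc receptor, read 3.91 ± 0.09 in the knockdown and 3.75 ± 0.06 with scrambled shRNA, and MPO, myeloperoxidase, 5.45 ± 0.11 in the knockdown and 5.39 ± 0.19 with scrambled shRNA (SD, n = 3 each). By mean level LYZ lay at percentile 0.83 of the genes tested, FCGR3A at 4.55 and CD14 at 24.0. The first and second of these are near the bottom of the array's range, so the sizes of their differences are uncertain. Among the scrambled arrays, replicate 3 read highest for SAMHD1, at 9.50. It read lowest for the mean of the 10 markers, at 5.37 beside 5.47 and 5.46. For ITGAM it also read lowest among the scrambled arrays, at 6.72 beside 7.35 and 7.26. Over all arrays, scrambled replicate 3 was the highest for 1 of the 10 markers and the lowest for 2. The part of the monocyte and granulocyte markers in the SAMHD1 result was not tested beyond these values.

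NT5C2, a cytosolic nucleotidase that removes the phosphate from purine monophosphates and can reverse activation of nucleoside analogues, read 8.82, 8.98 and 9.01 log2 units in the knockdown and 8.90, 8.78 and 8.65 with scrambled shRNA. Only knockdown replicate 1 fell within the scrambled range, and the difference of 0.16 ± 0.09 (SE; 95% interval −0.03 to 0.35) did not pass (limma, adjusted p = 0.374). Without scrambled replicate 3 it was 0.10 (adjusted p = 0.595), and without scrambled replicate 1 it was 0.22 (adjusted p = 0.193). DCK minus NT5C2 on the same array, a pair known for its opposing actions on analogue phosphates, was 0.46, 0.39 and 0.40 log2 units in the knockdown and 0.66, 0.58 and 0.53 with scrambled shRNA. The gap was 0.18 log2 units smaller in the knockdown without overlap. DCK minus SAMHD1 moved the other way. It was 1.01, 0.96 and 1.03 log2 units in the knockdown and 0.79, 0.48 and −0.32 with scrambled shRNA. That gap was 0.68 log2 units larger in the knockdown without overlap. It mostly restates SAMHD1: DCK alone differed by −0.02 and SAMHD1 by −0.70. Without scrambled replicate 3, which gave the −0.32, they differed by −0.11 and −0.47. Of the other gaps computed, DCK minus DGUOK overlapped, at 0.27, 0.43 and 0.48 in the knockdown and 0.60, 0.37 and 0.08 with scrambled shRNA. TK1 minus TK2 was 0.46 log2 units smaller in the knockdown and RRM2 minus RRM2B 0.28 larger, each without overlap. The gaps of DCK with NT5C2 and with SAMHD1 were chosen after the values were seen, and none of these gaps has a test. Their sizes and their changes depend on the probe sets.

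CDA, cytidine deaminase, which inactivates cytarabine and gemcitabine, read 5.56, 5.48 and 5.48 log2 units in the knockdown and 5.42, 5.52 and 5.53 with scrambled shRNA. Its probe set was the dimmest of the 10, at percentile 26.4 of the genes tested by mean level. The difference of 0.01 ± 0.07 (SE) had a 95% interval of −0.13 to 0.16 (limma, adjusted p = 0.940).

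**Figure D2:**
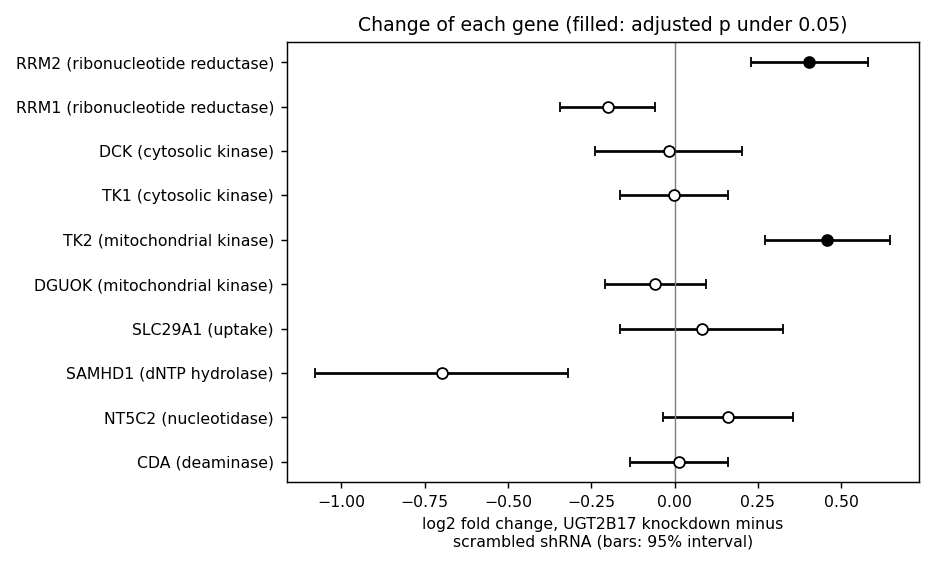
Log2 fold change of each gene, UGT2B17 knockdown minus scrambled shRNA (x axis), with its 95% interval from limma, ordered by role down the page. Filled points passed at an adjusted p under 0.05: RRM2 at 0.40 and TK2 at 0.46. The SAMHD1 interval, −1.08 to −0.32, is the widest.

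The rest of nucleotide metabolism was read from 8 further lists, of which 75 of 83 genes were measured. Of the 75 genes, 1 rose, 0 fell and 74 did not pass in limma, and 22 had an unadjusted p under 0.05. The share that rose, 1.33%, lay below the 1.92% of all genes, and the 22 make up 29.3%, beside 18.2% of all genes. The median log2 fold change of the 75 was −0.05, with 51 below 0 and 24 above, where 9330 of the 18404 genes lay below 0. The gene that rose was SLC29A4, an equilibrative transporter that carries monoamines and, at acid pH, adenosine. It read 7.59, 7.46 and 7.55 log2 units in the knockdown and 7.07, 7.13 and 6.63 with scrambled shRNA, without overlap, and rose by 0.59 ± 0.12 (SE), or 1.51-fold (limma, adjusted p = 0.0369). Scrambled replicate 3 was its lowest array, and without it the change was 0.44 (adjusted p = 0.0143). The call was lost without knockdown replicate 1, 2 or 3 (adjusted p = 0.144, 0.113 and 0.132), without scrambled replicate 2 (0.0616) and when every probe set of the array was tested (0.133). The other 10 transporters and exporters did not pass, among them SLC29A2, the close relative of SLC29A1, at 0.13 ± 0.07 and SLC28A3, a concentrative transporter, at 0.11 ± 0.09 log2 units, or 0.04 without scrambled replicate 3.

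De novo synthesis genes lay mostly below 0. In purine synthesis, 0 of 12 genes passed in limma and 5 had an unadjusted p under 0.05 (41.7%, beside 18.2% of all genes). Of the 12, 10 lay below 0, with a median log2 fold change of −0.14. PFAS, a purine ring synthesis enzyme, read −0.42 ± 0.13 (SE; adjusted p = 0.120), ATIC, which completes the ring, −0.33 ± 0.11 (0.141) and PRPS1, which makes phosphoribosyl pyrophosphate, −0.25 ± 0.10 (0.235). In pyrimidine synthesis, 0 of 5 passed and 1 had an unadjusted p under 0.05 (20%, near the 18.2% of all genes). All 5 lay below 0, with a median of −0.25. UMPS, which makes uridine monophosphate, read −0.25 ± 0.10, CTPS1, a CTP synthase, −0.41 ± 0.19 and CAD, which starts the pathway, −0.35 ± 0.16.

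Scrambled replicate 3 was the highest of the 6 arrays for 10 of the 12 purine genes and 4 of the 5 pyrimidine genes, against 28.9% of all genes. Without it the medians were −0.04 and −0.14 log2 units, and 8 of 12 and 5 of 5 genes lay below 0. The named differences were then smaller, at −0.26 for PFAS, −0.20 for ATIC, −0.13 for PRPS1, −0.14 for UMPS, −0.16 for CTPS1 and −0.14 for CAD. Mean purine levels ran from 9.27 to 9.29 log2 units on the knockdown arrays and from 9.31 to 9.62 on the scrambled arrays. The part of this array in the list medians beyond these values was not tested.

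**Figure D3:**
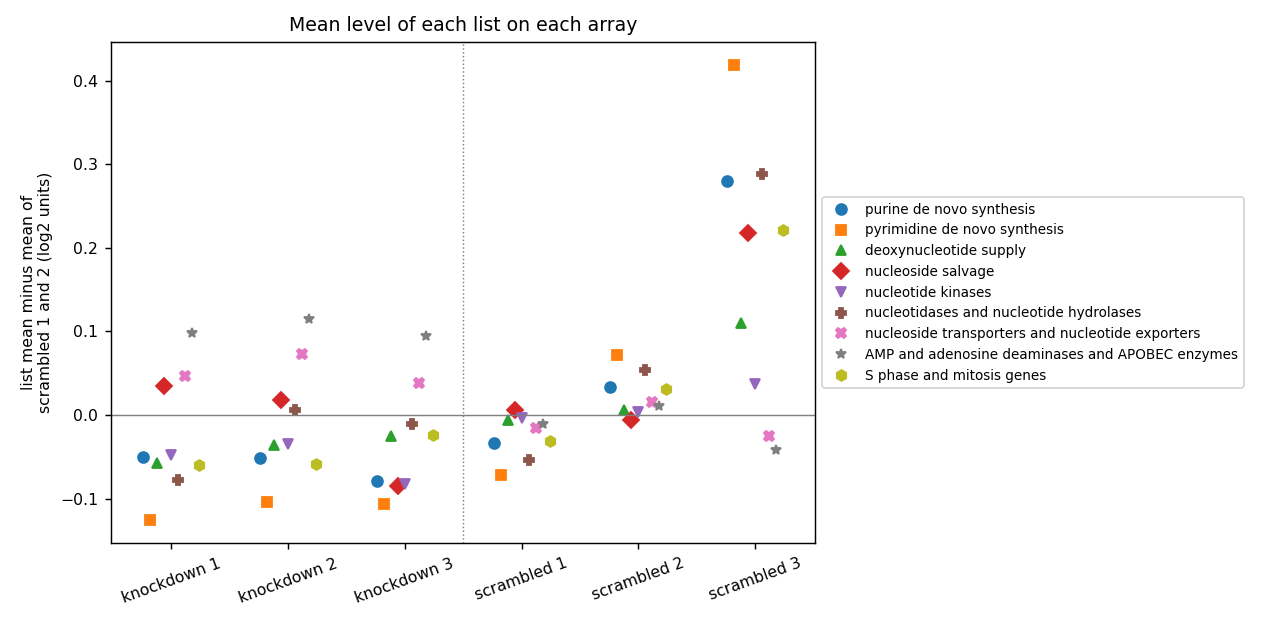
Mean log2 level of each list on each array, minus the mean of scrambled replicates 1 and 2 (y axis, log2 units), for the 3 UGT2B17 knockdown arrays (left) and the 3 scrambled shRNA arrays (right), with points shifted sideways by list. Scrambled replicate 3 stands highest for the purine, pyrimidine, deoxynucleotide, salvage, nucleotide kinase, nucleotidase and S phase lists. The deaminase and APOBEC list and the transporter list lie lower on the 3 scrambled arrays than on the knockdown arrays. Before the subtraction, the deaminase and APOBEC means are 8.53 to 8.58 (scrambled) and 8.66 to 8.68 (knockdown). Those of the transporters are 6.22 to 6.26 and 6.29 to 6.32.

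Among the other genes of deoxynucleotide supply, 0 of 6 passed in limma, with values on both sides of 0. An unadjusted p under 0.05 was found for 4 (66.7%, beside 18.2% of all genes). DUT, which removes dUTP, read −0.30 ± 0.07 log2 units (SE; adjusted p = 0.0583), SHMT1, a folate enzyme, −0.22 ± 0.07 (0.120) and DCTD, which deaminates dCMP, 0.22 ± 0.06 (0.1004). Of 11 salvage genes, 0 passed and 4 had an unadjusted p under 0.05 (36.4%, beside the same 18.2%). ADK, adenosine kinase, read −0.26 ± 0.06 (adjusted p = 0.0606), HPRT1, which salvages hypoxanthine and guanine, −0.29 ± 0.08 (0.0757) and UPP1, uridine phosphorylase, 0.49 ± 0.12 (0.0682). ADA, the adenosine deaminase inhibited by pentostatin, did not pass either, with an adjusted p of 0.853, and was chosen after its value was seen.

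Of 10 nucleotide kinases, 0 passed in limma and 2 had an unadjusted p under 0.05 (20%, near the 18.2% of all genes). NME4, a mitochondrial nucleoside diphosphate kinase, read −0.28 ± 0.09 log2 units (SE), AK3, which phosphorylates AMP with GTP in mitochondria, −0.16 ± 0.07, and AK4, a related mitochondrial kinase, 0.19 ± 0.11. Of 10 nucleotidases and hydrolases, 0 passed and 1 had an unadjusted p under 0.05 (10%, below the 18.2% of all genes). It was NT5E, the surface enzyme CD73 that makes adenosine from AMP, at −0.34 ± 0.09 (adjusted p = 0.0667). DCTPP1, a dCTP pyrophosphatase, read −0.28 ± 0.16 and NUDT1, which hydrolyses oxidised purine triphosphates, 0.13 ± 0.07. Without scrambled replicate 3, DCTPP1 read −0.07 and AK4 0.07.

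The deaminase and APOBEC list ran the other way. Of 10 measured genes, 0 passed in limma, 4 had an unadjusted p under 0.05 (40%, beside 18.2% of all genes) and 10 lay above 0. Of all 18404 genes, 9074 lay above 0. The median of the 10 was 0.11 log2 units, and the smallest differences, AMPD1 at 0.003 and AMPD2 at 0.006, were almost 0. APOBEC3F, a cytidine deaminase of single-stranded DNA, read 10.80, 10.79 and 10.88 log2 units in the knockdown and 10.57, 10.52 and 10.59 with scrambled shRNA, a difference of 0.27 ± 0.06 (SE; adjusted p = 0.0564). APOBEC3D, a related deaminase, read 0.18 ± 0.07 and AMPD3, an AMP deaminase, 0.19 ± 0.06. The APOBEC3 genes lie side by side and are alike in sequence, and whether their probe sets share signal was not tested. With arrays centred on their median, 8 of the 10 lay above 0 and the median was 0.08, and without scrambled replicate 3, 9 lay above 0.

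**Figure D4:**
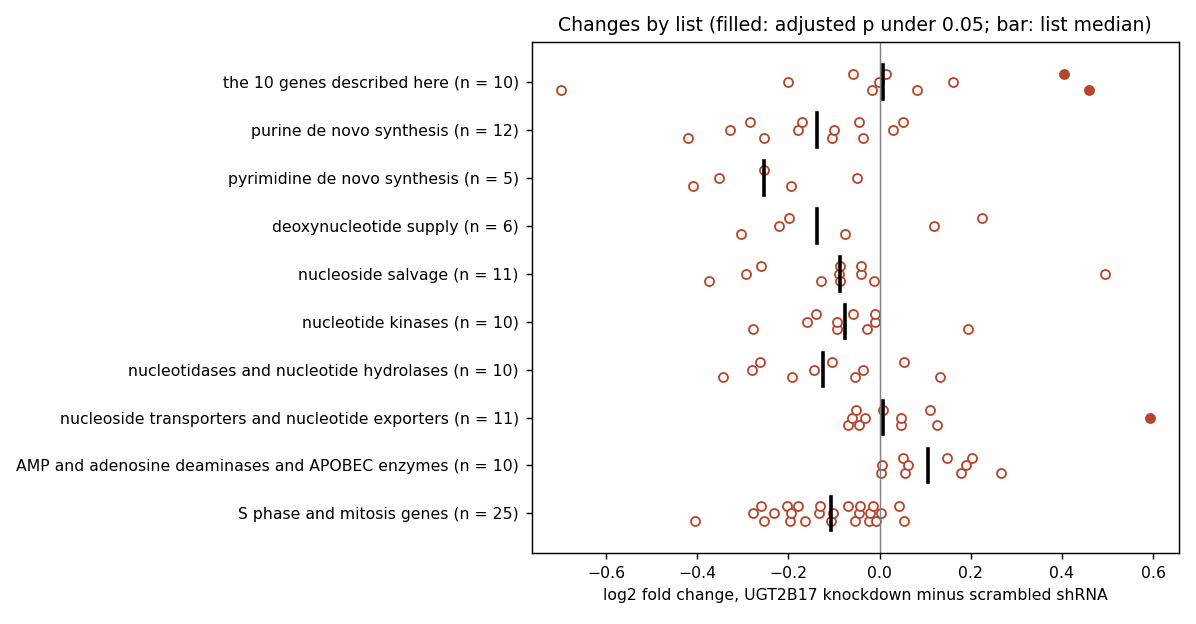
Log2 fold change, UGT2B17 knockdown minus scrambled shRNA (x axis), of every measured gene of each list (points), with the list median as a bar. Filled points passed at an adjusted p under 0.05: RRM2 and TK2 in the top row and SLC29A4 among the transporters. The medians of both de novo synthesis lists and of the S phase list lie below 0, at −0.14, −0.25 and −0.11.

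RRM2 and TK1 are transcribed mainly in S phase, so genes of S phase and mitosis were set beside them. Of 25 such genes, 0 passed in limma, 6 had an unadjusted p under 0.05 (24%, beside 18.2% of all genes) and 22 lay below 0. Of all 18404 genes, 9330 lay below 0. The median log2 fold change of the 25 was −0.11, beside 0.40 for RRM2, a contrast that was not tested. CCNB1 and CCNB2, the mitotic B cyclins, read −0.26 ± 0.08 and −0.18 ± 0.07 log2 units (SE), and MCM4, a subunit of the replicative helicase, −0.25 ± 0.11. Scrambled replicate 3 was the highest array for 20 of the 25. Without it the median was −0.07, 19 lay below 0 and MCM4 read −0.13. The largest difference above 0 in the list was that of E2F2, a transcription factor of S phase entry, at 0.05 ± 0.12.

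The genes whose pattern over the 6 arrays was most like that of RRM2, out of 18403, were PER2, a circadian clock repressor, ELOVL5, a fatty acid elongase, RPL39L, a ribosomal protein paralog, PPP3CB, a calcineurin subunit, and RAP1A, a small GTPase, with Pearson r from 0.994 to 0.998. Of these, RPL39L rose by 0.32 ± 0.07 log2 units (SE; limma, adjusted p = 0.0358), and the other 4 did not pass. The RPL39L call was lost with arrays centred on their median (adjusted p = 0.0769), when every probe set of the array was tested (0.107), and without any single array other than scrambled replicate 3 (0.0708 to 0.157). For TK2 they were CYP51A1, a cholesterol synthesis enzyme, SACM1L, a phosphoinositide phosphatase, LCK, a Src family kinase, GNLY, granulysin, and COPS2, a COP9 signalosome subunit, with r from 0.992 to 0.995. GNLY rose by 0.55 ± 0.08 (adjusted p = 0.00834), a call that was lost without knockdown replicate 2 (0.0555), and the other 4 did not pass. The 6 arrays share the group difference, and the best r of so many genes is high by selection, so these values are a description.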

How the data were processed

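Total RNA was labelled with biotin using an Affymetrix whole-transcript kit and hybridised to 1 array per sample, per the labels. The authors' values, deposited as log2, come from RMA, per the submitters' processing notes; RMA normally corrects background, applies quantile normalisation and summarises the probes of each set. Its version was not given in the sources used here. They run from 2.20 to 14.3 on 32321 probe sets and were used as deposited, without a filter on dim probe sets. RMA compresses differences near background.

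Probe sets were named through the platform annotation: 19158 carry 1 gene symbol, 1388 several and 11775 none. A gene with more than 1 such probe set (637 genes) was represented by its brightest, giving 18404 genes. Symbols were matched to RefSeq (GRCh38.p14) by Entrez identifier. The 10 genes have 1 such probe set each.

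The 2 labelled groups entered limma 3.58.1 (R 4.3.3; lmFit and eBayes, two-sided, no covariate, 4.82 prior degrees of freedom), adjusted by Benjamini-Hochberg over all genes, threshold 0.05, and checked on simulated data. SDs are over 3 arrays, whose number limits the precision. Exact permutation tests over arrays were two-sided. List genes without a single-gene probe set were not analysed here.

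The members and lists were chosen with earlier results of these data known. Named are all 10 members, UGT2B17, list genes that passed or else up to 3 with the smallest unadjusted p, and the 5 genes most like each called member; other names were added after their values were seen. Alternatives were renewed quantile normalisation, median centring, brighter genes only, an intensity trend or robust prior, array weights, other probe set choices, a block for the replicate number, omission of each array in turn, and a threshold of 0.1. Slides and scan times were not analysed.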

Additional observations from a re-analysis of the deposited data

How the results depend on the processing

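Groups of 3 arrays and dim probe sets such as those of UGT2B17 and CDA limit what can be seen. The count of the 10 genes that passed, 2, became 1 with arrays centred on their median, 4 with array weights, where scrambled replicate 2 weighed 6.12 and replicate 3 0.2496, 0 when every probe set of the array was tested and 1 with the replicate number as a block. It ran from 0 to 3 when 1 array was left out. Of all genes, 665 passed; the count was 3511 with array weights, 139 when every probe set of the array was tested, 367 with the replicate block, 1207 at an adjusted p under 0.1, and 152 to 759 when 1 array was left out. Median centring gave 275 higher and 316 lower genes, where the deposited scale gave 354 and 311. Of the other genes of nucleotide metabolism 1 passed; the count was 3 after renewed quantile normalisation, 6 among brighter genes only, 4 with an intensity trend, 18 with array weights, 0 when every probe set of the array was tested, 2 with the mean of a gene's probe sets, 0 with the replicate block, 7 at an adjusted p under 0.1, and 0 to 2 when 1 array was left out. The median log2 fold change of the 10 genes, 0.0063, was −0.017 with arrays centred on their median and −0.018 to 0.043 when 1 array was left out. SAMHD1 passed in 8 of 17 alternatives, RRM2 in 9 and TK2 in 11, where the looser threshold of 0.1 counts as an alternative. At that threshold SAMHD1 passed with its value from the main fit (limma, adjusted p = 0.0578). RRM1 passed only with array weights (adjusted p = 0.0160, range 0.0160 to 0.333). The cause of these changes was not tested, except that fits without an array have fewer degrees of freedom.

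The replicate numbers do not pair the arrays: deviations of same-numbered arrays from their group means correlated at −0.054, −0.067 and −0.033, and 0 of 3 knockdown arrays correlated best with their own number. In the fit with the replicate block, SAMHD1 passed (adjusted p = 0.0480) and RRM2 (0.0529), TK2 (0.0616), SLC29A4 (0.0503) and RPL39L (0.0846) did not.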
